A study of Mus musculus with 12 samples.

Results

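The 12 triceps brachii profiles differed widely in transcripts of the slow muscle fibre, and 11 of them were divided into slow-fibre-rich and slow-fibre-poor samples by the level of Myh7, the slow myosin heavy chain gene. A sample was rich where Myh7 had at least 100 normalized reads and poor where it had at most 20. The 5 rich samples were inactive wild-type (IW) mouse 1, active wild-type (AW) mice 2 and 3, and active myostatin-reduced (AM) mice 1 and 2. The 6 poor samples were IW 2, AW 1, AM 3 and all 3 inactive myostatin-reduced (IM) mice. IW 3, with 63.1 normalized reads of Myh7, lay between the limits and was left out of the comparison. The sides were chosen by the measured Myh7 values, so every rich and poor difference is given below as a description, without a p-value. The members nearest the limits were AM 1 with 164 reads on the rich side and AW 1 with 15.6 on the poor side.

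Polyadenylated RNA was measured in the triceps brachii, which extends the elbow. The mice were male C57/BL6, with 3 in each of the 4 combinations of genotype and activity. All 12 mice, controls included, ate chow with 0.025% tamoxifen for 6 weeks before they were 6 months old. The myostatin-reduced mice carried floxed copies of Mstn, the gene of the secreted inhibitor of muscle growth myostatin, which the drug served to delete, and the wild-type mice did not. The promoter that drove the recombinase is not given in the sources used here. From 6 months of age the active mice lived with running wheels for 12 weeks, and the inactive mice had none. Mstn itself lay between 79.7 and 138 normalized reads in the 6 wild-type samples and between 8.7 and 21.6 in the 6 myostatin-reduced samples, so every sample matched its genotype label. Between the sides of Myh7 its fitted difference was -0.41 (SE 0.22) on the log2 scale described below. In the wild-type mice compared, the rich samples had 79.7 to 90.1 normalized reads and the poor samples 110 and 138, while in AM the rich samples had 8.7 and 16.1 and the poor sample 13.5.

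Skeletal muscle is built of slow fibres, which contract with the Myh7 myosin, rely on mitochondria and resist fatigue, and of fast fibres, which use the Myh2, Myh1 or Myh4 myosin in order of falling oxidative capacity. Each fibre class has its own set of troponins, light chains and calcium-handling proteins, so that fibre classes can be recognised from RNA. The mouse triceps is mainly a fast muscle with slow fibres gathered in a small deep region. Since these are bulk samples, fewer slow fibres and less slow RNA per fibre cannot be told apart. Which part of the muscle was taken from each mouse is not given in the sources used here.

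Promoter sequences of Myh7, Tnnc1 (slow and cardiac troponin C) and Tnni1 (slow troponin I) are shown as examples of the 5 slow-fibre marker genes, which also include Myl2 and Tnnt1. Each is the stretch of 250 bases before the most upstream transcription start in RefSeq (table of build GRCm38.p6), placed by exact match in NCBIM37. That of Myh7 is chr14:55613464-55613713 on the minus strand, that of Tnnc1 is chr14:32021248-32021497 on the plus strand, and that of Tnni1 is chr1:137695748-137695997 on the plus strand, inside the annotated span of the gene (137679642 to 137707566). Capitals mark E-boxes (CANNTG, the motif of the myogenic regulators) and MCAT boxes (CATTCC, or GGAATG on the other strand, the motif of TEAD factors).
Myh7: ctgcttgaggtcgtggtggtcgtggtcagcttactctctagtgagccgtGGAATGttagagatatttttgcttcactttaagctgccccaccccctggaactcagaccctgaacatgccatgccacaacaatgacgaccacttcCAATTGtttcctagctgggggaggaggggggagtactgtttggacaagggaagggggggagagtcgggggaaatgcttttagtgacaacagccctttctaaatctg
Tnnc1: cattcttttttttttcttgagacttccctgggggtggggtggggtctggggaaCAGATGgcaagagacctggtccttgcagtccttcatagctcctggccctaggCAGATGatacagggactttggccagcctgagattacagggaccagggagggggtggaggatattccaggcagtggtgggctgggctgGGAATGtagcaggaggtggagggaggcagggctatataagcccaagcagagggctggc
Tnni1: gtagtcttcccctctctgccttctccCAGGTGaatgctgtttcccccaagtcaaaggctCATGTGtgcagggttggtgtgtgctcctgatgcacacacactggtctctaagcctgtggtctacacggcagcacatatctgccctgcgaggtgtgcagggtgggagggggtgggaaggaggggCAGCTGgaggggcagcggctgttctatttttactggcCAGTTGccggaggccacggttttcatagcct
RefSeq's most upstream start need not be the one used in muscle: the window of Myl2 ends at 122542732 on chromosome 5, well before the annotated start of the gene at 122550960, and that of Tnnt1, like that of Tnni1, lies inside the annotated span. With this limit, an E-box was found on either strand in the windows of all 5 marker genes and in all 12 of the slow contractile genes tested, against 54.9% of the 5297 genes tested that had a window. An MCAT box was found in 2 of the 5 and in 3 of the 12, against 10.4%. The letters CACCC were found in 5 of 5 and in 10 of 12, against 57.2%. A match to the MEF2 consensus was found in 0 of the 5 and in 2 of the 12, against 2.0%. These are counts of letters in short windows and were not tested.

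The highest and lowest samples differed 386-fold in Myh7. In normalized reads, the IW 1 sample held 375.5 of Myh7, with 447 in AW 2, 498 in AW 3, 164 in AM 1 and 393 in AM 2. In the poor samples it stood at 1.29 in IW 2, 15.6 in AW 1, 2.73 in AM 3 and 1.43, 8.68 and 9.02 in IM 1, IM 2 and IM 3. The poor samples were thus not uniform either, and AW 1 and the IM 2 and IM 3 samples carried several times the Myh7 of IW 2, IM 1 and AM 3.

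The other 4 marker genes, which the rule did not use, separated the same samples. Tnnc1 was at 56.8 in IW 1, 75.1 in AW 2, 94.1 in AW 3, 27.7 in AM 1 and 62.2 in AM 2, against 0.32 to 2.4 in the 6 poor samples. Tnni1 was at 44.1, 58.8, 71.1, 22.3 and 48.3 in the same rich samples, against 0.2 to 2.23 in the poor ones. Tnnt1, slow troponin T, was at 93.2, 107, 142, 40.4 and 89.3, against 0.53 to 5.73. Myl2, the regulatory light chain of slow and ventricular myosin, was at 107, 143, 166, 37.1 and 102, against 0.83 to 9.78. For all 5 genes AW 3 was highest, AW 2 next, and AM 1 lowest of the rich samples, IW 3 came just under AM 1, and AW 1 was highest of the poor samples. The rich and poor values did not overlap for any of the 4 genes other than Myh7, for which the rule fixed it.

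Within the rich samples the markers kept nearly fixed proportions to each other. Per 100 normalized reads of Myh7, Tnnc1 ranged from 15.1 to 18.9, Tnni1 from 11.8 to 14.3, Tnnt1 from 22.7 to 28.5 and Myl2 from 22.6 to 33.3. On the same scale IW 3 had 16.5 of Tnnc1, 12.5 of Tnni1 and 32.7 of Myl2, inside the ranges of the rich samples, and 31.4 of Tnnt1, above their range. In the poor samples the proportions were wider, with Tnnc1 from 15.4 to 57.4 and Myl2 from 27.5 to 131. Some of these values rested on few reads: from the step between neighbouring low values, Tnni1 came to about 2 reads and Tnnc1 to about 3 in IM 1, and Myh7 to about 14 in both IW 2 and IM 1. Others were better counted, and AW 1, with about 180 reads of Myh7 and 113 of Myl2, had 62.7 of Myl2 per 100 of Myh7, above the range of the rich samples.

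**Figure D1:**
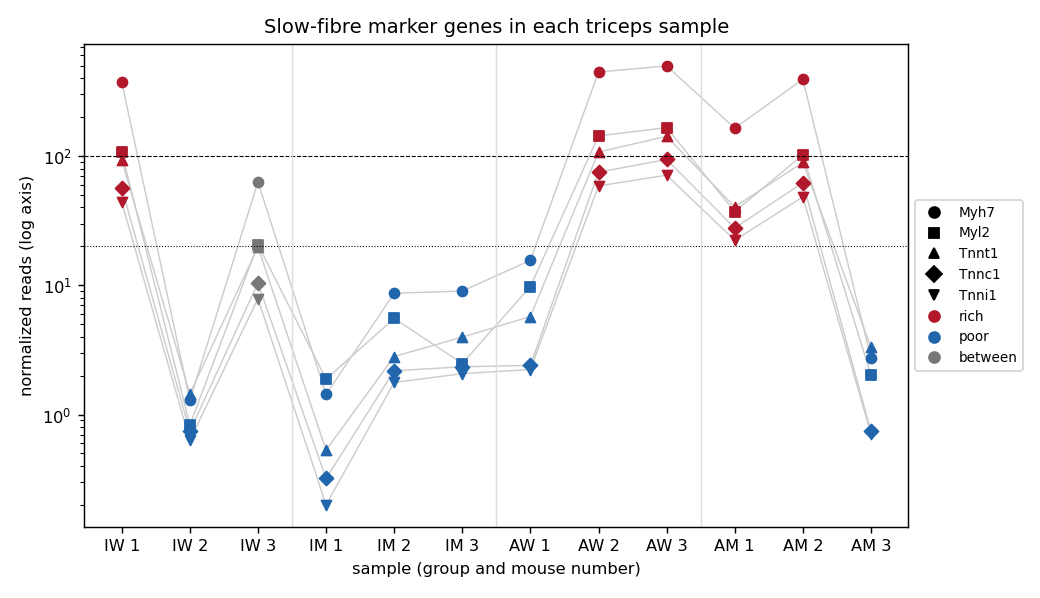
Normalized reads (log axis) of Myh7, Myl2, Tnnt1, Tnnc1 and Tnni1 in each of the 12 samples, coloured by side, with dashed and dotted lines at the Myh7 limits of 100 and 20. All 5 genes follow each other over the samples, IW 3 lies between the sides with Myh7 at 63.1, and the rich and poor samples are found within the IW, AW and AM groups, while the 3 IM samples are all poor.

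The sides were spread unevenly over the labelled groups, but neither label separated them past the threshold of a test. Of the rich samples 4 of 5 came from active mice, against 2 of 6 poor samples (Fisher's exact test, two-sided, p = 0.242). Wild-type mice gave 3 of 5 rich and 2 of 6 poor samples (Fisher's exact test, two-sided, p = 0.567). Rich and poor samples occurred together in IW, AW and AM, and only these 3 groups inform the difference between sides. It was therefore fitted for each of 7247 genes with a mean of at least 10 normalized reads as a common shift inside groups, in a linear model of log2(normalized reads + 1) with 4 group means. All differences below are on this scale, and they understate the change of genes with few reads. A gene counts as higher or lower in the rich samples where the fitted difference reached 1.5-fold and had the same sign inside IW, AW and AM. With 1 or 2 samples of each side in a group, an SE describes the scatter about this model only.

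Far more genes passed this limit upward than downward. In the rich samples 75 genes (1.03% of those tested) were higher and 6 (0.0828%) were lower, while the median over all genes was -0.03. Differences over 4-fold were found for 10 genes, all higher. Counted by non-overlap of the 5 rich and 6 poor values instead, 144 genes (1.99%) were higher and 218 (3.01%) lower. This second count takes no account of group, while all IM samples were poor and 4 of 5 rich samples came from active mice. Of the 81 genes past the limit, 43 higher and 1 lower also did not overlap.

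The slow contractile genes led the list. Of 14 listed, 12 passed the filter on low values, and 8 of these had a mean under 10 in the poor samples, so that they passed through the rich samples and had to differ. As a description, those 12 were higher in the rich samples (1.03% over all genes) with a median of 2.94 against -0.03 over all genes, and 11 of them did not overlap (1.99% over all genes), Myh7 being in both counts by the rule. With a sample left out and the same genes kept, 11 or 12 passed the fold limit. This is no check on the 8 that had to differ, and leaving out an IM sample cannot change the difference. Of the 2 members under the filter, Myl6b, a myosin light chain, had 3.07 to 6.82 in the rich and 3.58 to 6.13 in the poor samples, with no separation, and Myh7b, a slow-type myosin heavy chain, had 3.44 to 10.1 and 0.63 to 2.02. The 5 markers differed by 5.98 (SE 0.70) for Myh7, 4.75 (SE 0.42) for Tnnc1, 4.59 (SE 0.53) for Myl2, 4.45 (SE 0.40) for Tnni1 and 4.36 (SE 0.52) for Tnnt1. Myl3, the essential light chain of slow and ventricular myosin, was at 110 in IW 1, 132 in AW 2, 150 in AW 3, 61.6 in AM 1 and 119 in AM 2, against 3.19 to 12.1 in the poor samples, a difference of 3.34 (SE 0.41). Tpm3, the slow tropomyosin gene, ranged from 27.6 to 67.3 in the rich and from 4.64 to 9.13 in the poor samples. Myoz2 and Csrp3, proteins of the Z-disc, differed by 2.28 (SE 0.45) and 2.19 (SE 0.30), and Myom3, a protein of the M-band, by 1.81 (SE 0.29). Mybpc1, slow myosin-binding protein C, had the smallest difference of the list, 0.59 (SE 0.22), and its sides overlapped.

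Of the 4 slow calcium-handling genes 2 were tested, and Atp2a2 had the larger difference. Atp2a2, the calcium pump of slow and cardiac muscle, was at 403 in IW 1, 413 in AW 2, 449 in AW 3, 147 in AM 1 and 313 in AM 2. In the poor samples it held to a narrow range, 36.2 to 40.7 in 5 of them and 54 in AW 1. Its difference was 2.90 (SE 0.27). Casq2, the calsequestrin of slow and cardiac muscle, differed by 0.94 (SE 0.13), and its sides overlapped, with AM 3 (31.3) above IW 1 (26.7). Pln and Sln, inhibitors of these pumps, were under the filter on low values, and both overlapped, with 1.68 to 4.76 in the rich and 1.04 to 2.79 in the poor samples for Pln and 0.63 to 6.70 and 1.64 to 7.72 for Sln.

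Among the fast myosins the more oxidative forms were higher in the rich samples and the least oxidative form was lower. Myh2, the IIa myosin, was at 2515 in IW 1, 4900 in AW 2, 3102 in AW 3, 2932 in AM 1 and 3323 in AM 2. The poor samples had 627 in IW 2, 899 in AW 1, 354 in IM 1, 557 in IM 2, 89.9 in IM 3 and 1015 in AM 3, so no sample of either side reached the other. The difference was 1.90 (SE 0.61). Myh1, the IIx myosin, ranged from 11089 to 14698 in the rich and from 1727 to 9430 in the poor samples, with a difference of 0.76 (SE 0.27). Inside groups this was 1.5 in IW and 0.52 and 0.44 in AW and AM, the active groups. Myh4, the IIb myosin, was at 73727 in IW 1, 56811 in AW 2, 54013 in AW 3, 66296 in AM 1 and 54103 in AM 2, against 75908 in AW 1, 78856 in AM 3, 96845 in IW 2 and 104829 to 106795 in the IM samples. It differed by -0.42 (SE 0.07), and by -0.39, -0.45 and -0.40 inside IW, AW and AM.

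**Figure D2:**
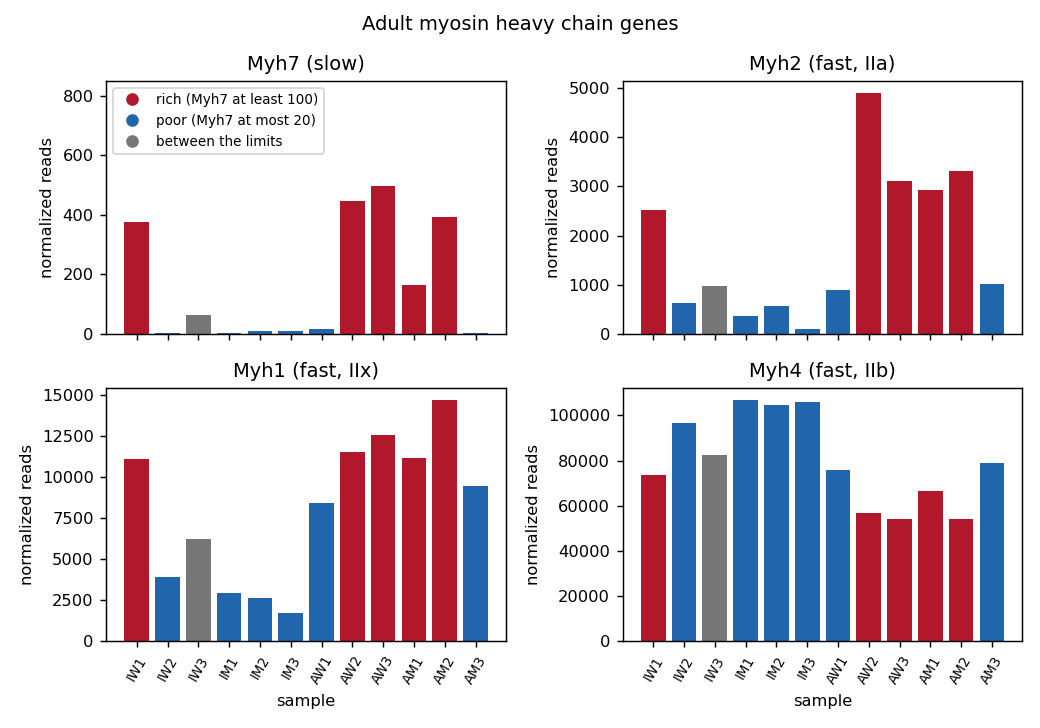
Normalized reads of the adult myosin heavy chain genes Myh7, Myh2, Myh1 and Myh4 in the 12 samples, as bars from 0 with an axis of its own for each gene, coloured by side. The rich samples are the 5 highest for Myh7, Myh2 and Myh1 and the 5 lowest for Myh4, and Myh1 in the poor samples AW 1 and AM 3 (8406 and 9430) stands well above the other poor samples.

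Fast-fibre genes other than Myh2 and Myh1 were slightly lower on the rich side. Of the 13 fast contractile genes tested, those 2 were the only members past the fold limit (1.03% over all genes), Myh1 no longer without IW 1 or IW 2, and the other 11 had differences below 0 (list median -0.26). For 6 genes of the list (3.01% over all genes) all rich values lay below all poor values, among them Tnnc2 (fast troponin C) with 9495 to 11134 in the rich and 11145 to 12763 in the poor samples, a difference of -0.25 (SE 0.04). Tnni2 and Tnnt3, the fast troponins I and T, differed by -0.20 and -0.22. All 7 fast calcium-handling genes were below 0 (median -0.21), and Pvalb, the calcium buffer parvalbumin, ran from 5801 to 7629 in the rich and from 8669 to 10430 in the poor samples. The 20 genes of glycolysis and glycogen breakdown had a median of -0.21, 7 of them did not overlap downward (3.01% over all genes), and none passed the fold limit (0.0828% lower over all genes). These many small shifts went together with a difference in composition: the 10 most abundant genes took 23.4% to 25.5% of all normalized reads in the rich and 26.1% to 30.6% in the poor samples, and the summed reads were 927958 to 983909 against 988019 to 1080140. The part of this difference in the small shifts was not tested, and rescaling to the upper quartile left 4 genes past the limit downward.

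Sodium pump subunits showed opposite directions. Atp1b1, the beta subunit found in slow muscle, was at 292 in IW 1, 340 in AW 2, 334 in AW 3, 174 in AM 1 and 280 in AM 2, against 45.1 to 152 in the poor samples, a difference of 1.02 (SE 0.28). Atp1b2, the beta subunit of fast muscle, ranged from 151 to 262 in the rich and from 220 to 405.7 in the poor samples, with a difference of -0.45 (SE 0.11) and overlapping sides. Fxyd6, a small regulator of the same pump, differed by 1.48 (SE 0.29). A like contrast was seen in the actinins, where Actn3, the fast-fibre actinin, differed by -0.45 (SE 0.08) and Actn2 by 0.83 (SE 0.19). Actn2 was named after its values were seen.

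Of the remaining genes named by rank, Lmod2, which builds thin filaments, differed by 1.28 (SE 0.22), Mb, the oxygen store myoglobin, by 1.03 (SE 0.28), Idh2, a mitochondrial isocitrate dehydrogenase, by 1.02 (SE 0.24), and Fhl1, a LIM protein of muscle, by 0.88 (SE 0.22). Mb ranged from 2704 to 4842 in the rich and from 284 to 2261 in the poor samples, and within the poor samples the active mice AW 1 and AM 3 (2261 and 1970) stood above the inactive ones (284 to 1098). Ldhb, the lactate dehydrogenase subunit of oxidative tissue, was at 147 in IW 1 and 212 to 324 in the other rich samples, against 14.8 to 151 in the poor samples, and its sides overlapped because AM 3 (151) exceeded IW 1. Of the genes whose mean reached 50, the lowest was Smox, spermine oxidase, at 296 in IW 1, 414 in AW 2, 387 in AW 3, 646 in AM 1 and 437 in AM 2, against 606 to 1003 in the poor samples, a difference of -0.78 (SE 0.19). Car3, a carbonic anhydrase abundant in muscle, ranged from 1936 to 3028 in the rich and from 3242 to 4508 in the poor samples and differed by -0.55 (SE 0.11), short of the fold limit. Rasd2, Cpeb1, Slc38a4, Pla2g7, the mitochondrial gene ATP8, Mllt11, Sorbs2 and A530098C11Rik, the other genes lowest by rank, lay between -0.50 and -0.44. The 5 other genes lower past the limit, named after their values were seen, were Kcnf1 (-0.96, the lowest of the 6), Neto2, Cbr2, Cited4 and Tiam1, each with means between 12.5 and 35.3 normalized reads. Of these only Cbr2 did not overlap (15.9 to 18.5 in the rich and 23.9 to 31.3 in the poor samples). The count of 6 lower genes depended on the samples held: it was 17 without AM 1, 10 without AW 1 and 33 without AM 3. The count of 75 higher genes became 115 without AM 3. AW 1 and AM 3 are the only poor samples of their groups. Leaving out either takes the whole group out of the difference and the sign rule, and leaving out IW 1 or IW 2 does the same for IW.

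**Figure D3:**
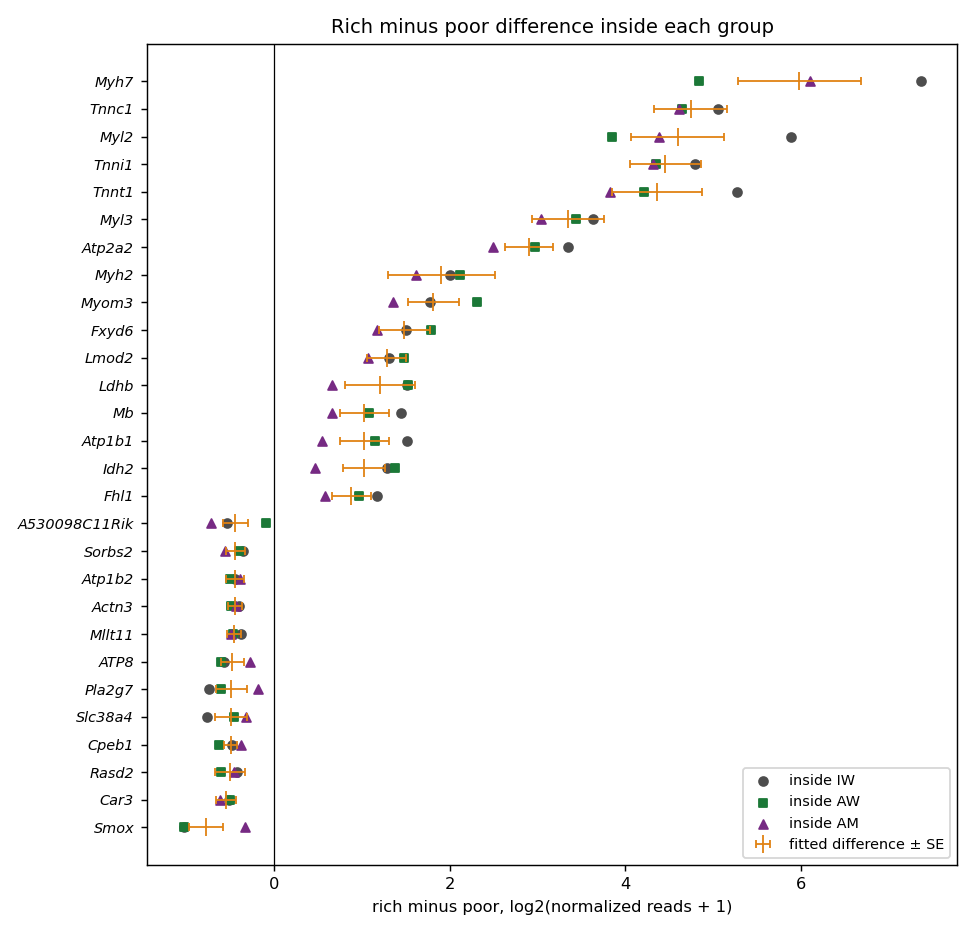
Rich minus poor differences on the scale log2(normalized reads + 1) for the genes named by rank and the 5 markers, inside IW (circles), AW (squares) and AM (triangles), with the fitted difference and its SE (orange). The slow contractile genes, Atp2a2 and Myh2 lie at the top, from 1.81 for Myom3 to 5.98 for Myh7. Ldhb and Idh2, like Mb and Atp1b1, have smaller differences inside AM than inside IW or AW. The genes named by rank were chosen for the same sign inside IW, AW and AM, so none of them can cross 0 between groups. Mstn is not shown.

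Fatty acid oxidation genes had a smaller median difference than the slow contractile genes. Like the 75 higher genes, they had the smallest of their group medians in AM. All 22 fatty acid oxidation genes were above 0 (median 0.31), against 3073 of the 7247 genes tested. Of the 22, 7 did not overlap upward (1.99% over all genes), and 4, Cd36, Fabp3, Lpl and Pdk4, passed the fold limit (1.03% over all genes). This count was 1 without AM 2, 2 without AW 1 and 6 without AM 3, and the difference of Pdk4 (0.77) had an SE of 0.52. Cd36, which takes up fatty acids, ranged from 353 to 496 in the rich and from 145 to 328 in the poor samples, with differences of 1.00 in IW, 0.90 in AW and 0.35 in AM. Lpl, which frees fatty acids from blood lipids, differed by 0.93, 1.09 and 0.16 in the same order. The median of the list was 0.44 in IW, 0.38 in AW and 0.14 in AM. Bdh1, which oxidises ketone bodies, differed by 1.40 (SE 0.42), from 43.3 to 118 in the rich and from 1.93 to 40.9 in the poor samples. Over the 75 higher genes the median difference was 0.99 in IW, 1.04 in AW and 0.63 in AM, against -0.02, -0.04 and -0.03 over all genes. AM had the smallest of the 3 values for 51 of the 75, a share not counted over all genes. Whether AM differs from the other groups was not tested, and IW, AW and AM each hold 1 poor sample.

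Nuclear genes of oxidative phosphorylation had small differences between the sides. Of 74 tested, 0 passed the fold limit, near the 1.03% higher over all genes. Non-overlapping sides were found for 0 (1.99% higher and 3.01% lower over all genes). Above 0 were 70, against 3073 of the 7247 genes tested, with a median of 0.10 (0.15 in IW, 0.15 in AW and -0.01 in AM). With a sample left out this median ran from 0.06 (without AW 1, with 58 genes above 0) to 0.17 (without AM 3). The largest difference was that of Sdhb, a subunit of complex II, at 0.35 (SE 0.11). The 12 genes of the citric acid cycle were alike, with a median of 0.12 (0.08 without AW 1) and 0 past the limit (1.03% over all genes). Their median inside AM was -0.0004. Of the 12, 6 had the same sign inside IW, AW and AM, against 3105 of the 7247 genes tested. The 13 genes of the mitochondrial genome went the other way, with 12 of 13 below 0 and a median of -0.25. Among 25 regulators of fibre type and mitochondria tested, only Esrrg, an oestrogen-related receptor, passed the limit (0.74, SE 0.28; 1.03% over all genes), and Ppargc1a, a coactivator of mitochondrial genes, was at 56.2 to 71.9 in the rich and 44.2 to 58.1 in the poor samples (0.24, SE 0.09).

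Activity and genotype were then tested with and without the side in the model, using the moderated test of limma with Benjamini-Hochberg adjustment over 7247 genes. Without it, over 12 samples, activity changed 1051 genes (14.5%) and genotype 419 (5.78%). Without it and without IW 3, they were 831 and 377. With the side, over the same 11 samples, activity changed 500 genes (6.90%) and genotype 459 (6.33%), and 444 of the 1051 activity calls were also made with it. Of the 81 genes past the fold limit between sides, activity was called for 33 without and 16 with the side, and genotype for 4 and 9. Counts with the side in the model depended strongly on single samples: 17 genes were called for activity without AM 3, 24 without IW 1 and 1459 without AM 1.

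The side is set by Myh7, so for the slow contractile genes, which include it, and for others that follow it such as Atp2a2, a smaller change with activity once the side is in the model follows from the rule and is given as a description only. For the 12 slow contractile genes the median change with activity was 1.80 without and 0.40 with the side, and the latter was 0.25 without AM 3 and 0.67 without IW 1. Activity was called for only 3 of the 12 without and 1 with the side (14.5% and 6.90% over all genes). For Atp2a2 the difference with activity was 1.28 without the side and -0.01 (SE 0.19) with it. Its values ran from 36.2 to 403 in the inactive and from 37.3 to 449 in the active samples, so the 2 activity levels overlapped almost wholly. For the 74 respiratory genes the median change with activity was 0.36 without and 0.33 with the side. Activity raised 72 of them in the model without the side and 64 in the model with it, against 579 and 323 of all 7247 genes. In either direction 14.5% and 6.90% of all genes were called. All 74 stayed above 0 whichever sample was left out, with medians from 0.27 to 0.35, but the number called fell to 3 without IW 1 or without AM 3. Fatty acid oxidation genes were called for activity in 19 of 22 cases without and 13 of 22 with the side, and with the side this was 0 without AM 3, 1 without IW 1, 7 without IW 2 and 8 without AW 1. Myh1 and Myh2, higher in the rich samples, were raised by activity as well in the model without the side (1.51 and 2.04, limma adjusted p = 0.002 and 0.025). As both are higher in the rich samples, their smaller change with the side in the model is given as a description too. With the side, Myh1 had 1.17 (SE 0.19, limma adjusted p = 0.009) and Myh2 had 1.19 (SE 0.42, limma adjusted p = 0.109), nearly equal changes with unlike SEs. These calls also rested on single samples: with the side, Myh1 lost its call without AM 3 (limma adjusted p = 0.084) and Myh2 gained one without IM 3 (limma adjusted p = 0.031). Without the side, Myh2 lost its call without IW 2, IW 3, IM 3, AW 2, AW 3 or AM 2 (limma adjusted p from 0.053 to 0.069), and Myh1 kept its own whichever sample was left out. Egln3, an oxygen-sensing prolyl hydroxylase, showed this split within a single gene: it was 35.7 in IW 1 against 21.1 in IW 2, and from 67.3 to 137 in all 6 active samples. As both models share their samples, the values are set side by side only.

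**Figure D4:**
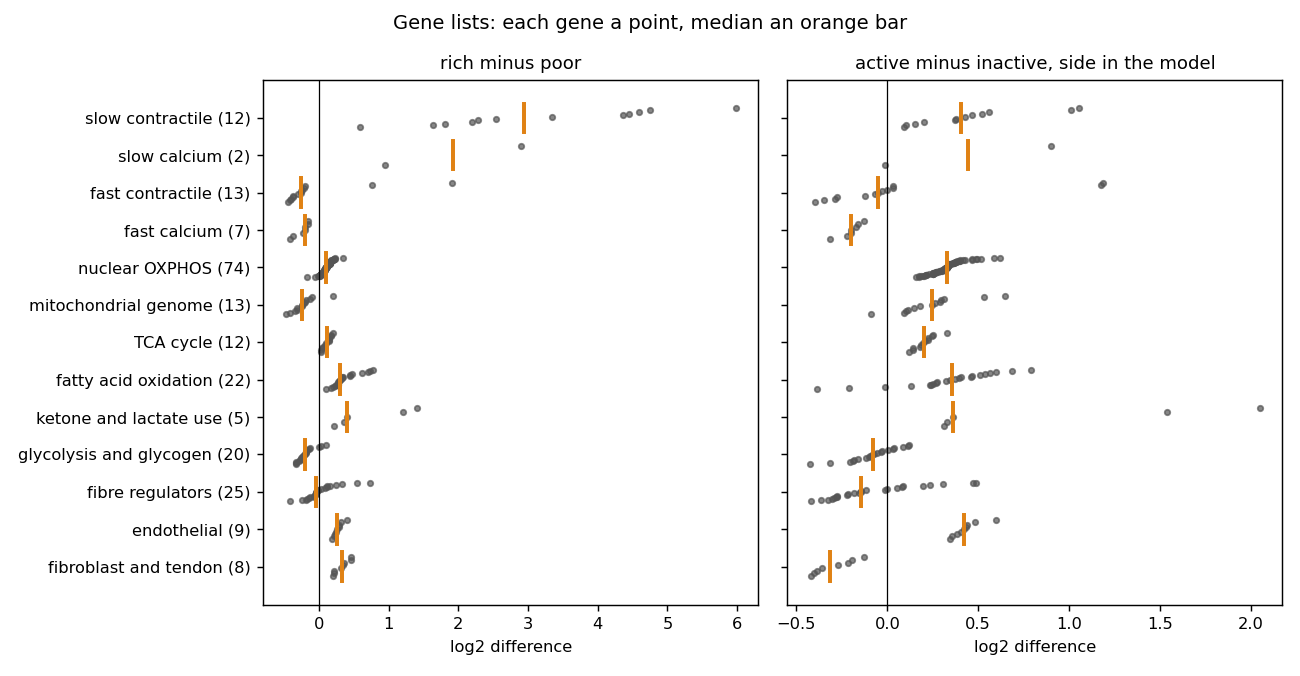
Differences on the log2 scale for the genes of 13 lists (the number tested in brackets), each point a gene and the orange bar the list median. On the left, rich minus poor samples, the slow contractile genes lie furthest to the right (median 2.94) and the 74 nuclear OXPHOS genes lie near 0 (median 0.10), and on the right, active minus inactive mice with the side in the model, these medians are 0.40 and 0.33.

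Markers of other cells were followed for their part in the sides. Endothelial genes were above 0 for 9 of 9 (median 0.25), against 3073 of the 7247 genes tested, and 0 passed the fold limit (1.03% over all genes). Their summed levels were 405 to 678 in the rich and 307 to 544 in the poor samples. The same sign inside IW, AW and AM was found for 3 of the 9, against 3105 of all genes. The endothelial median was 0.26 in IW, 0.60 in AW and -0.02 in AM, and over the groups it was 0.05 without AW 1, 0.39 without AM 1 and 0.44 without AM 3. Of 8 fibroblast and tendon genes all had differences above 0 inside all 3 groups (median 0.33), and 0 passed the limit (1.03% over all genes). Their summed levels overlapped widely (574 to 724 in the rich and 484 to 745 in the poor samples). Smooth muscle genes had a median of 0.29 over 6 genes with 0 past the limit (1.03% over all genes), and of 0.47 in IW, 0.57 in AW and -0.19 in AM, where the direction turned. The summed levels of 6 adipocyte markers were 126 to 237 and 108 to 181, those of 4 nerve and Schwann cell markers 37.7 to 75.3 and 22.6 to 57.2, and those of 7 immune markers 71.6 to 87.1 and 62 to 109, in the rich and poor samples. The 2 satellite cell genes summed to 43.6 to 52.5 in the rich and 52.9 to 56.9 in the poor samples. Of the cardiac markers Myh6 was the only gene in the table, at 2.69 to 6.38 normalized reads in the rich and 0.92 to 4.04 in the poor samples, and the red blood cell gene Alas2 was at 2.11 to 7.19. The part of these cells in the differences was not tested.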

How the data were processed

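RNA of the triceps brachii from 12 mice, 3 in each of 4 groups given by the labels, was read as 65-base single-end reads after selection for polyadenylated RNA. The authors mapped the reads to mm9 with CASAVA (per the labels, version not given in the sources used here), counted those in RefSeq exons and deposited normalized read counts, a signal scaled so that all samples share the same trimmed mean over genes outside the mitochondrial genome. The values are not divided by gene length, so levels were compared within genes. Whole reads could be read back for 89.0% to 91.2% of values under 5 but only for 54.8% to 60.9% of those from 20 to 50, so no count model was used. From the step between low values the depth came to 9024048 to 12184782 reads, and 3 reads were worth 0.231 to 0.316 normalized reads.

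From the deposited values, log2(value + 1) was fitted with limma 3.58.1 (R 4.3.3) for the 7247 genes whose mean reached 10. The description of the sides held 4 group means and the side over 11 samples. The tests of activity and genotype were contrasts of the 4 group means with an intensity trend, with and without the side, at an adjusted p of 0.05. Genes were named as Mstn, the 5 markers, the 12 highest and 12 lowest of those reaching a mean of 50 with the same sign inside IW, AW and AM, and members of fixed lists as examples. The members and lists were chosen with earlier results of these data known. The samples of a group were taken as separate mice, as the protocol implies, so p-values measure the spread between mice and their tissue samples. The scripts were tested on simulated data. Alternatives were other pseudocounts, filters, scaling, model terms, Myh7 as a covariate, the place of IW 3, a replicate block, leaving out each sample, and, chosen after seeing the data, IW and AW samples only, each list with a sample left out and the exact tests with IW 3 on either side. Counting was not stated to use strand.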

Additional observations from a re-analysis of the deposited data

Results flagged for a closer look

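In 3 of 58 sets of values examined (each named gene in the rich and in the poor samples), a sample lay far from the others of its side, where about 5% are found by chance. Atp2a2 was at 54 normalized reads in AW 1, above the 36.2 to 40.7 of the other 5 poor samples. Rasd2, a small GTPase, was at 118.6 in IM 3, above the other poor samples. Slc38a4, an amino acid transporter, was at 342 in AM 1, above the other 4 rich samples. AM 1 also had the lowest Myh7 of the rich samples and AW 1 the highest of the poor samples.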

How the results depend on the processing

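Against 75 higher and 6 lower genes past the fold limit, a mean of at least 50 left 26 and 1, no filter on low values gave 142 and 13, IW and AW samples alone gave 115 and 33, a pseudocount of 5 gave 3 lower and a model with no activity or genotype term 31 lower. With a sample left out the counts ran from 58 to 115 higher and from 5 to 33 lower. The cause was not tested. The median difference of the 5 markers was 4.59, 3.46 with a pseudocount of 5, and 4.33 to 4.83 with a sample left out. Under a mean of at least 50 it has no value, since 4 of the markers fall under that filter.

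Activity was called for 1051 genes, 445 with log2 Myh7 as a covariate, and 552 (without AW 3) to 1485 (without AW 1) with a sample left out. It was 582 without IW 2, 655 without IM 3, 596 without AW 2 and 609 without AM 2. Genotype was called for 419 genes, 272 with a mean of at least 50, and 180 (without AW 3) to 579 (without AW 1). It was 203 without IW 1 or without IM 3, 214 without IM 1, 227 without AW 2 and 245 without AM 3. With the side in the model, activity (500 genes) ran from 17 (without AM 3) to 1459 (without AM 1), with 24 without IW 1 and 238 to 301 without IW 2, IM 1, IM 2, AW 1, AW 2 or AW 3. Genotype (459 genes) ran from 83 (without AW 1) to 794 (without AM 1), with 142 without IW 1, 115 without IW 2, 270 without IM 1 and 289 without AW 3, and was 304 with IW 3 on the rich side. Beyond the smaller number of samples, the cause was not tested. The exact tests of sides against labels gave p from 0.242 to 0.567 for activity and from 0.567 to 1 for genotype with IW 3 on either side, none past the threshold.

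Replicate numbers did not pair the samples: of 18 same-numbered pairs 9 had a correlation of deviations over 0.1 (range -0.605 to 0.484), and 5 of 12 samples correlated best with their own number. A replicate block gave 75 higher and 6 lower genes, a marker median of 4.57, 1082 and 364 genes for activity and genotype, and 373 and 388 with the side. Of 634 values of named genes under the alternatives, 614 moved by less than the spread between samples, 20 moved by more, and 1, of Mstn, changed sign. Part of the 614 could not move. All IM samples were poor, so leaving out an IM sample returned the main difference, and the filters on low values left each gene's own fit unchanged. Some settings also repeated a fit, as leaving out IW 1 or IW 2 gave the same differences. The count of 614 therefore overstates how far the values were tested. Depth limited the markers in the poor samples, where Tnni1 had about 2 reads in IM 1.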
